A study of Homo sapiens with 6 samples.

Results

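Peroxisomal beta-oxidation was examined through 9 genes, AMACR, ACOX3, HSD17B4, SCP2, ACAA1, PECR, ABCD3, EHHADH and ACOT8, taken by gene symbol from a table of 14456 genes. All 9 were measured and all 9 passed the filter on low values. The cells were C4-2, a human castration-resistant prostate cancer line derived from LNCaP and described by the labels as epithelial-like. Grown in RPMI with 10% fetal bovine serum, the cells received IPI-9119, which inhibits fatty acid synthase (FASN), at 100 nM, or the vehicle DMSO at 0.1%, over 6 days. Each group held 3 libraries of polyadenylated RNA from this 1 line. Nothing in the labels tells whether replicates came from separate cultures. The p-values therefore cover the spread between these libraries only, and that spread may be technical.

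Peroxisomes shorten fatty acids that mitochondria handle poorly, among them very long, dicarboxylic and methyl-branched chains and the side chains of bile acid precursors. Acyl-CoAs enter through ABCD transporters, an acyl-CoA oxidase makes the double bond and releases hydrogen peroxide, a bifunctional enzyme hydrates and oxidises, and a thiolase cuts off the shortened product. The racemase AMACR turns 2-methyl-branched acyl-CoAs into the stereoisomer that the oxidases accept, and its protein is a tissue marker used by pathologists for prostate cancer.

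Values are normalised counts: each gene's reads, scaled by the authors with 1 size factor per library. The libraries held 19090749 to 23448035 reads, and the 9 genes together 18173 to 20937 reads per library. Of 14437 genes tested, 31.3% were higher and 31.4% lower in the IPI-9119 libraries at an adjusted p under 0.05 (limma, Benjamini-Hochberg over all genes), so that a call in one direction was common. The target gene FASN did not pass (log2 fold change -0.31, adjusted p 0.112, limma), but was lower and past the threshold without IPI-9119 replicate 3 (-0.40, adjusted p 0.0225), and its log2 fold change was -0.13 without IPI-9119 replicate 1 (adjusted p 0.0773). Because exon length and base composition can bias a library, every fold change was also computed with both adjusted for. This is called the length and GC correction here. With it FASN turned to 0.84 and was called higher (limma adjusted p 2.1e-08), so the direction of FASN depended on the fit. All 8 luminal prostate markers on a list that included KLK3 and KRT18 were measured, and all were lower with IPI-9119. Their summed level ran from 234877 to 246356 normalised counts with DMSO and from 122139 to 126173 with IPI-9119. Of 8 stromal, endothelial and leukocyte markers 4 were measured, with a summed level of 114 to 147 and 128 to 167 normalised counts, and ACTA2 was higher (17 reads over the DMSO and 45 over the IPI-9119 libraries). Of 3 hepatocyte markers TTR was measured, with 4 reads over the DMSO and 153 over the IPI-9119 libraries. The other markers of these lists and the basal markers KRT5, KRT14 and TP63 were not found by symbol among the 14456 genes. Fewer cells of a kind and less RNA per cell cannot be told apart in such libraries. The part of these differences in the results was not tested.

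Of the 9 genes 5 were higher, 1 was lower and 3 did not pass, against 31.3% of all genes higher and 31.4% lower. AMACR and PECR were the genes with at least a 2-fold rise, 2 of 9, where 7.92% of all genes rose that much. With the length and GC correction both fell short of a 2-fold rise (log2 fold changes 0.95 and 0.87). The median log2 fold change of the 9 was 0.18, and that of all genes tested was 0.0017. All IPI-9119 libraries lay above all DMSO libraries for 5 genes (34.0% of all genes did so) and below them for 3 (33.9%). The share higher among these genes was thus above the share of all genes, and the share called lower below it, with no test of either difference. Because the 9 genes were chosen with earlier results of these data known, these shares describe the 9 genes only.

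**Figure D1:**
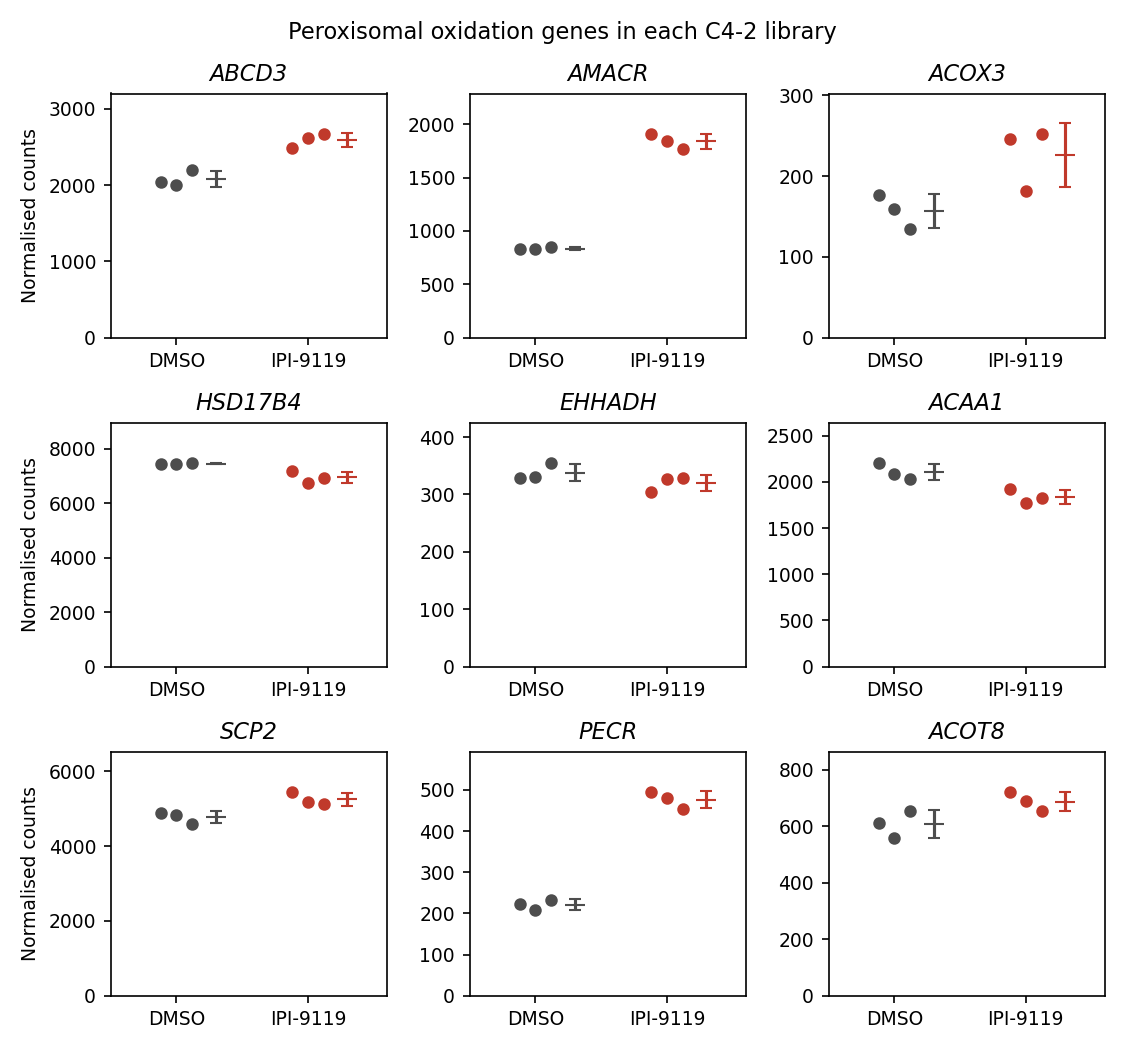
Normalised counts (y axis, from 0) of each gene in the 3 DMSO (grey) and 3 IPI-9119 (red) libraries, with the group mean and SD beside the points. AMACR lies between 827 and 847 with DMSO and between 1763 and 1906 with IPI-9119, while the ACOT8 libraries of the groups overlap.

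AMACR gave 829.5, 826.6 and 846.8 normalised counts in DMSO libraries 1 to 3 and 1906.0, 1844.4 and 1763.0 in IPI-9119 libraries 1 to 3. Every IPI-9119 library was above every DMSO library, and the spread within each group was small beside the gap. The means were 834 ± 10.95 and 1838 ± 71.8 (SD, n = 3), a 2.20-fold rise with a 95% interval of 2.02 to 2.40 (log2 fold change 1.14, SE 0.057, limma adjusted p 8.3e-10). The rise held in all 18 alternative fits, with log2 fold changes from 0.95 to 1.17. AMACR (ENSG00000242110) lies on chromosome 5 from 33986178 to 34008108, minus strand (GRCh38, GENCODE 29). It shares 2660 exonic bases on its strand with the read-through gene C1QTNF3-AMACR, which is not among the 14456 genes. How reads in those bases were assigned is not given in the sources used here, so the level of AMACR is less certain than its number of reads would give.

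PECR, the peroxisomal trans-2-enoyl-CoA reductase, works in the direction of chain elongation and also acts on phytol products, which are branched. Its libraries gave 222.6, 207.6 and 233.3 normalised counts with DMSO and 494.4, 481.0 and 454.2 with IPI-9119. As with AMACR, the highest DMSO library lay far below the lowest IPI-9119 library. The means were 221 ± 12.9 and 477 ± 20.5 (SD, n = 3), a 2.15-fold rise with a 95% interval of 1.88 to 2.47 (log2 fold change 1.10, SE 0.092, limma adjusted p 1.4e-07). The gene (ENSG00000115425, chromosome 2, 215996329 to 216082955, minus strand) shares 137 exonic bases with MREG, which had 429 reads over all libraries.

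The promoters of these genes are shown because AMACR and PECR rose by about the same factor. Each run is the 250 bases before the RefSeq start site (GRCh38.p14), read 5′ to 3′ on the gene's strand. Capitals mark the E-box CACGTG, a motif bound by several families of transcription factors.

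AMACR, chr5:34008051-34008300, minus strand: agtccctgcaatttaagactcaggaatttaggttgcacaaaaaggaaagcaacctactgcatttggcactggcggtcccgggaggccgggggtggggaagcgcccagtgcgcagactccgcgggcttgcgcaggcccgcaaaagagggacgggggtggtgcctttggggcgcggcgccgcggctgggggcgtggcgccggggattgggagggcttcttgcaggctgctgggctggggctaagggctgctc

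PECR, chr2:216081810-216082059, minus strand: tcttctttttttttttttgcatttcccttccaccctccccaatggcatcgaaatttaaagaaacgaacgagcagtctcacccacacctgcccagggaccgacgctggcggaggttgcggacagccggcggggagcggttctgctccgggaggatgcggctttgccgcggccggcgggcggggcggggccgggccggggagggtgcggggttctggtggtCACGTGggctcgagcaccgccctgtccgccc

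Within these 250 bases the AMACR promoter held 66.4% G and C with 18 CpG dinucleotides, and the PECR promoter 66.0% with 25. Promoters were found for 7 of the 9 genes, 9 promoters in all, since ACOX3 and SCP2 have 2 each. They were searched over 300 bases, 50 of them after the start, on both strands. The motif AGGTCA, the core of the element bound by PPAR and RXR receptors, was in none of the 9 promoters, against 10.3% of 15471 promoters of genes in the table. The E-box was in PECR alone, with its first base 31 bases before the start, against 9.57% of those promoters. The letters CACGTG were chosen after the sequences had been seen. A match describes the letters only, and a promoter without one says nothing about a factor.

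Of the genes for the entry and the initial oxidation, ABCD3 and ACOX3 rose. ABCD3, a transporter of the peroxisomal membrane that takes up branched and dicarboxylic acyl-CoAs and bile acid precursors, gave 2037.9, 2001.3 and 2193.2 normalised counts with DMSO and 2491.1, 2610.1 and 2665.9 with IPI-9119. The groups did not overlap. The rise was 1.25-fold with a 95% interval of 1.15 to 1.35 (SE of the log2 fold change 0.054, limma adjusted p 0.00014). The gene (ENSG00000117528) lies on chromosome 1 from 94418455 to 94518666, plus strand.

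ACOX3, an acyl-CoA oxidase for branched chains such as pristanoyl-CoA, had the fewest reads of the 9, 513 over the DMSO and 628 over the IPI-9119 libraries. It gave 176.1, 159.5 and 135 normalised counts with DMSO and 245.6, 181.1 and 251.9 with IPI-9119. IPI-9119 replicate 2 stood close to DMSO replicate 1, and the within-group coefficients of variation were 13.2% and 17.3%, the widest of the 9 genes. The rise was 1.43-fold with a 95% interval of 1.15 to 1.78 (log2 fold change 0.52, SE 0.15, limma adjusted p 0.0071). The gene (ENSG00000087008) lies on chromosome 4 from 8366282 to 8440723, minus strand.

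The bifunctional enzymes did not pass the test. HSD17B4, the D-bifunctional protein of branched and very long chains, which also oxidises estradiol, gave 7425.8, 7435.3 and 7466.0 normalised counts with DMSO and 7166.6, 6746.2 and 6918.8 with IPI-9119. All IPI-9119 libraries were below all DMSO libraries, by a small margin. The ratio was 0.933 with a 95% interval of 0.875 to 0.995 (log2 fold change -0.10, limma adjusted p 0.0566). The call depended on the processing: adjusted p-values over all fits ran from 0.0048 to 0.213, and HSD17B4 passed with TMM scaling (0.0484) and without IPI-9119 replicate 1 (0.0121). The gene (ENSG00000133835) lies on chromosome 5 from 119452443 to 119637199, plus strand.

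EHHADH, the L-bifunctional protein that handles dicarboxylic and straight chains, gave 328.9, 331.2 and 354.5 normalised counts with DMSO and 304.7, 326.1 and 328.8 with IPI-9119. The highest IPI-9119 library and the lowest DMSO library differed by less than 1 normalised count. The ratio was 0.946 with a 95% interval of 0.828 to 1.08 (log2 fold change -0.080, limma adjusted p 0.455). With the length and GC correction EHHADH was lower and past the threshold (-0.30, adjusted p 0.00656), and its adjusted p over all fits ran from 0.00411 to 0.791. The gene (ENSG00000113790) lies on chromosome 3 from 185190624 to 185281990, minus strand. It shares 269 exonic bases with EHHADH-AS1 on the other strand, which is not among the 14456 genes.

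The thiolases went opposite ways. ACAA1, which cleaves straight chains, gave 2201.5, 2082.4 and 2027.9 normalised counts with DMSO and 1917.6, 1771.3 and 1820.2 with IPI-9119. Its groups did not overlap, and it fell to 0.873 of the DMSO level with a 95% interval of 0.804 to 0.947 (log2 fold change -0.20, SE 0.055, limma adjusted p 0.0065). The call was lost with the length and GC correction (-0.095, adjusted p 0.204, the highest over all fits, of which the lowest was 0.000778). ACAA1 (ENSG00000060971, chromosome 3, 38103129 to 38137242, minus strand) shares 1403 exonic bases with DLEC1 on the other strand. DLEC1 is not among the 14456 genes, and whether the counting used strand is not given in the sources used here.

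SCP2 encodes a thiolase for branched chains, and a shorter sterol carrier protein from an internal start. It gave 4881.1, 4847.1 and 4587.6 normalised counts with DMSO and 5444.0, 5186.4 and 5130.6 with IPI-9119. The groups did not overlap, and the rise was 1.10-fold with a 95% interval of 1.03 to 1.18 (log2 fold change 0.14, SE 0.047, limma adjusted p 0.019). SCP2 was past the threshold in 16 of 18 alternative fits, and not without DMSO replicate 3 (adjusted p 0.0913) or with neither trend nor robust moderation (0.0844). The lowest adjusted p over all fits was 0.00331. SCP2 shares 1275 exonic bases with the pseudogene TUBBP10 on its strand and 445 with the pseudogene AL445183.3 on the other strand. Neither pseudogene is among the 14456 genes. How reads in the shared bases were assigned is not given in the sources used here. A count per gene sums the transcripts of both starts (ENSG00000116171, chromosome 1, 52927229 to 53051703, plus strand). The 250 bases before each start are shown for this reason, all in lower case since they hold no CACGTG.

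SCP2, upstream start, chr1:52927026-52927275, plus strand: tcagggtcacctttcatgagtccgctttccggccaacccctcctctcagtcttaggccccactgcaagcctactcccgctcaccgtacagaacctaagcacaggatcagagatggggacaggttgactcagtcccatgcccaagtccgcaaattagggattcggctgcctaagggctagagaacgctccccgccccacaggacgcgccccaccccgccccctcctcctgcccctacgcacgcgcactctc

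SCP2, internal start, chr1:53014687-53014936, plus strand: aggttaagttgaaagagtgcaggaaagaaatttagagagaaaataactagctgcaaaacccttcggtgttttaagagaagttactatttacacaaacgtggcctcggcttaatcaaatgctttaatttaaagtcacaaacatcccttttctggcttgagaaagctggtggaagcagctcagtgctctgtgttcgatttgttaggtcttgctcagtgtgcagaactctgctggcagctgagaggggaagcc

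The upstream promoter held 62.4% G and C with 14 CpG dinucleotides, the internal one 42.8% with 4. Which of the starts was used in these cells was not measured.

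ACOT8, a thioesterase that releases free acids from peroxisomal acyl-CoAs, gave 610.5, 557.6 and 654.8 normalised counts with DMSO and 721.1, 689.3 and 653.3 with IPI-9119. The groups overlapped at IPI-9119 replicate 3 and DMSO replicate 3. The ratio was 1.13 with a 95% interval of 1.01 to 1.27 (log2 fold change 0.18, limma adjusted p 0.0603). ACOT8 passed without DMSO replicate 3 (adjusted p 0.0349) and with quantile scaling (0.0181), and its highest adjusted p over all fits was 0.517. ACOT8 (ENSG00000101473, chromosome 20, 45841721 to 45857406, minus strand) shares 1489 exonic bases with SNX21 on the other strand, which had 266 reads over all libraries against 1987 of ACOT8 with DMSO and 1910 with IPI-9119.

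**Figure D2:**
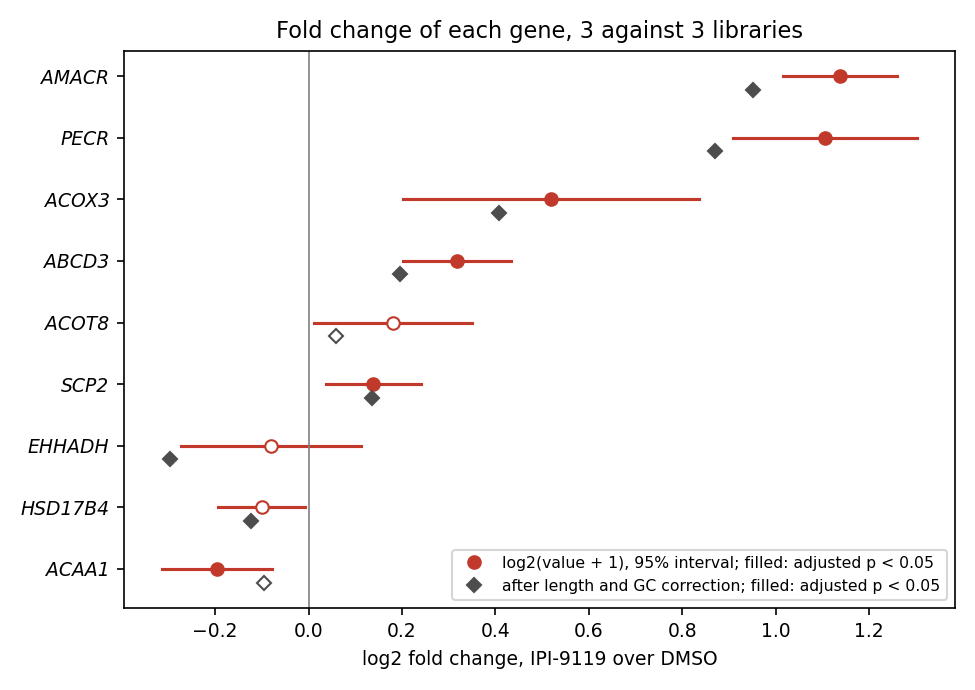
Log2 fold change of IPI-9119 over DMSO (x axis) of each gene, as circles with the 95% interval of the limma fit, and as diamonds with the length and GC correction. Filled symbols have an adjusted p under 0.05. AMACR (1.14) and PECR (1.10) stand apart, ACAA1 (-0.20) is open with the correction and EHHADH is filled at -0.30.

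The length and GC correction left 5 of the genes higher and 2 lower, where 30.7% of all genes were higher and 34.1% lower. AMACR was then 0.95, PECR 0.87, ACOX3 0.41, ABCD3 0.20 and SCP2 0.14 on the log2 scale. These 5 were the genes that rose without the correction too. The genes called lower were HSD17B4 (-0.12, adjusted p 0.0475, limma) and EHHADH in place of ACAA1.

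Levels were compared between genes per kilobase of the longest transcript with a consensus coding sequence. With DMSO the order was HSD17B4 (2583 ± 7.30 normalised counts per kilobase, SD, n = 3), ACAA1 (1179 ± 49.7), SCP2 (917 ± 30.9), ABCD3 (587 ± 28.8), ACOT8 (520 ± 41.7), AMACR (201 ± 2.64), PECR (119 ± 6.97), EHHADH (87.9 ± 3.68) and ACOX3 (54.8 ± 7.22). In that order no neighbours overlapped between the DMSO libraries, though the lowest ABCD3 and the highest ACOT8 library came close (565.7 and 560.7). With IPI-9119 the order of the means was kept, but ACAA1 (1029 ± 41.7) and SCP2 (1010 ± 32.1) overlapped, as did EHHADH (83.1 ± 3.44) and ACOX3 (79.1 ± 13.7). AMACR reached 443 ± 17.3 and PECR 257 ± 11.1. HSD17B4 thus had the highest RNA level per kilobase of the 9 genes in both groups. With DMSO it ranked above 96.0% of all genes of the table, AMACR above 62.0% and ACOX3 above 35.3%. Per kilobase of all merged exons the order differs, with SCP2 (575) above ACAA1 (296) and AMACR (172) above ACOT8 (144) in the DMSO means. The lead of HSD17B4 is also smaller by that length, at 698 against 575 of SCP2 with DMSO. With IPI-9119 the means are 651 and 633, and the libraries of HSD17B4 and SCP2 overlap.

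As a share of the summed level per kilobase of the 9 genes, AMACR took 3.22% ± 0.048 with DMSO and 6.67% ± 0.183 with IPI-9119 (mean ± SD of 3 libraries). PECR took 1.91% ± 0.099 and 3.88% ± 0.130. HSD17B4 took 41.3% ± 0.491 and 36.3% ± 0.331. The sum itself was 6249 ± 70.2 and 6631 ± 166 normalised counts per kilobase. These are descriptions, with no test over the summed genes. The shares depend on the length used and were not computed per kilobase of merged exons.

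Ratios within a library do not depend on how libraries were scaled, and those given here were chosen after the values had been seen, as a description with no test. AMACR stood at 0.112, 0.111 and 0.113 of HSD17B4 in the DMSO libraries and at 0.266, 0.273 and 0.255 in the IPI-9119 libraries. SCP2 over ACAA1 was 2.22, 2.33 and 2.26 with DMSO and 2.84, 2.93 and 2.82 with IPI-9119. In both pairs every IPI-9119 library was above every DMSO library. EHHADH over HSD17B4 was 0.0454 ± 0.00177 and 0.0461 ± 0.00316 (SD, n = 3), and its groups overlapped.

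**Figure D3:**
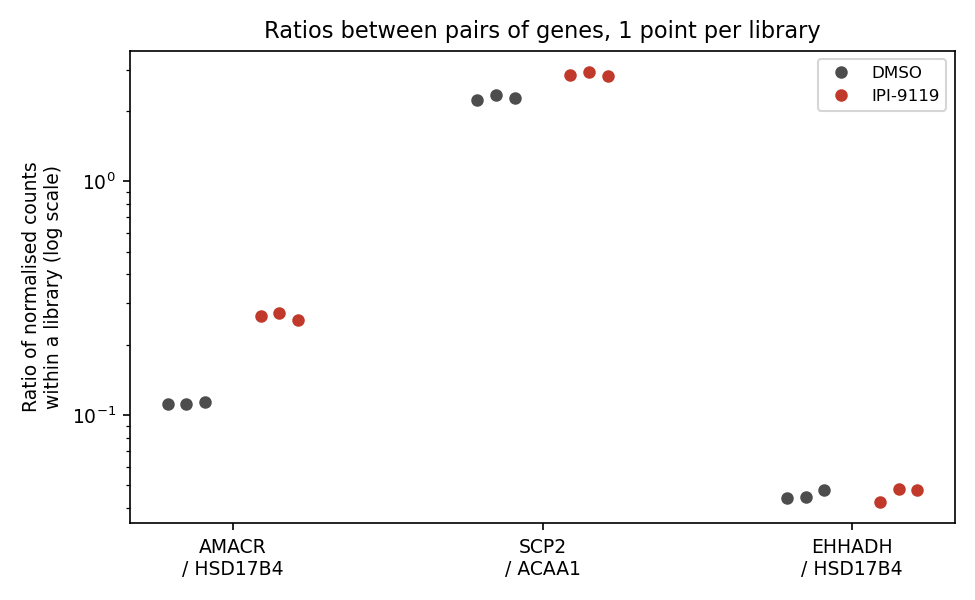
Ratio of the normalised counts of a pair of genes within each library (y axis, log scale), 1 point per library, DMSO in grey and IPI-9119 in red. The groups separate for AMACR over HSD17B4 (means 0.112 and 0.265) and for SCP2 over ACAA1 (2.27 and 2.86), and overlap for EHHADH over HSD17B4.

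Other genes of peroxisomal oxidation went both ways. Of 19 listed genes 16 were measured, of which 8 were higher, 6 lower and 2 not past, with a median log2 fold change of 0.036. Over all genes tested 31.3% were higher and 31.4% lower. SLC27A2, an acyl-CoA synthetase for very long and branched chains, had 331 ± 3.27 normalised counts with DMSO and 1985.5 ± 74.8 with IPI-9119 (mean ± SD of 3 libraries), a rise of 2.58 on the log2 scale (limma adjusted p 1.2e-12). ALDH3A2, the fatty aldehyde dehydrogenase that also oxidises the aldehyde from phytanic acid breakdown, rose by 0.91. Smaller rises were those of PHYH (0.31) and HACL1 (0.27), which carry out alpha-oxidation of phytanic acid, and of HSDL2 (0.28). Rises were also seen in DECR2 (0.27) and ECH1 (0.13), which handle double bonds of unsaturated chains, and ACBD5 (0.21, and -0.029 with the correction), which tethers peroxisomes to the endoplasmic reticulum. After the length and GC correction 3 of the 8, SLC27A2, ALDH3A2 and DECR2, were still higher.

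CRAT (-0.55) and CROT (-0.39), the acyltransferases that pass shortened chains on as carnitine esters, fell, as did ECI2 (-0.35) and the CoA diphosphatase NUDT19 (-0.34). Each of these 4 genes was called lower with the correction too. ACOX2, the oxidase of branched chains and bile acid precursors, had a log2 fold change of -0.056 (95% interval -0.28 to 0.17) and NUDT7 one of -0.31 (-0.84 to 0.22). HACL1, SLC27A2 and CRAT share exonic bases with genes on the other strand. For HACL1 and BTD (4118 and 3847 reads) and for CRAT and PTPA (1289 and 30340) the partner is abundant, so their levels are less certain.

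The rest of the organelle was mixed too, as were all genes tested, of which 31.3% were higher and 31.4% lower. Of 16 peroxins, which build peroxisomes and import their proteins, 5 were higher, 3 lower and 8 not past (median 0.062). The share of peroxins called higher was near that of all genes. PEX10 (1.14) and PEX2 (0.45), ubiquitin ligases of the import receptor, rose. The membrane anchor PEX26 (-0.33) fell, and was 0.23 after the correction. PEX10 shares 1481 exonic bases with the abundant gene RER1 on the other strand. Of 18 measured genes on a list of other peroxisomal proteins 8 were higher, 4 lower and 6 not past (median 0.17). MPV17 (0.75) and the glutathione transferase GSTK1 (0.72) rose, though whether MPV17 belongs to the peroxisome was not examined. MLYCD (-0.71, and 0.13 after the correction), which decarboxylates malonyl-CoA, and the epoxide hydrolase EPHX2 (-0.63) fell. CAT, which breaks down the hydrogen peroxide made by the oxidases, fell by 0.22 on the log2 scale (3914 ± 127 normalised counts with DMSO and 3369 ± 41.1 with IPI-9119).

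Mitochondrial beta-oxidation gave 8 genes higher, 8 lower and 2 not past of 18 (median 0.023). For all genes tested the shares were 31.3% higher and 31.4% lower, and no list was tested against them. ACAA2 (1.36, from 52.2 ± 9.16 normalised counts with DMSO), a thiolase, and HADH (0.99), a dehydrogenase, rose. HADHA (-0.34) and HADHB (-0.17), which also serve the dehydrogenase and thiolase steps, were called lower. CPT1A (-2.12) and SLC25A20 (-0.95), which bring long chains into mitochondria, fell. Of 8 measured genes that carry the HSD17B name beside HSD17B4, 6 were higher, 0 lower and 2 not past (median 0.74), with HSD17B6 (2.24, from 15.2 ± 6.97 normalised counts) and HSD17B11 (2.16) the widest. A list of regulators held PPAR and RXR genes, which encode receptors that switch on peroxisomal genes, and coactivators of these receptors. Of its 6 measured genes, 5 receptors and the coactivator PPARGC1B, 1 was higher and 3 lower (median -0.25). PPARG (1.02) rose and PPARD (-1.42) fell, RXRA fell (-0.59) but was 0.39 after the correction, and PPARA had a log2 fold change of -0.17 (95% interval -0.47 to 0.13). With the length and GC correction the medians were -0.089 for the other oxidation genes, -0.0024 for the peroxins, 0.080 for the other peroxisomal proteins, -0.13 for mitochondrial beta-oxidation, 0.61 for the HSD17B genes and 0.28 for the regulators, against -0.033 for all genes, so 4 of these 6 medians turned sign.

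**Figure D4:**
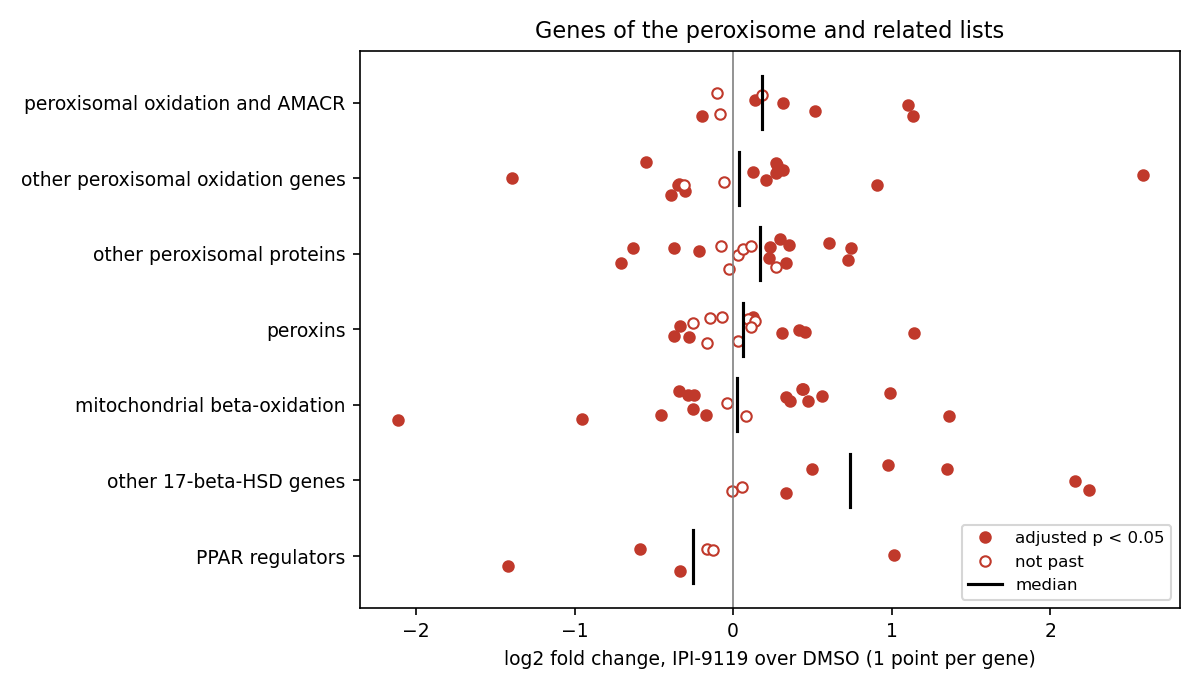
Log2 fold change of IPI-9119 over DMSO (x axis) of each measured gene, 1 point per gene, by list, with the list median as a bar. Filled points have an adjusted p under 0.05. Every list but the HSD17B genes has called points on both sides of 0, and the medians lie between -0.25 and 0.74.

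The genes most like AMACR over the 6 libraries were FAM83D, SQLE, EBP, TESK2 and MSANTD3, with Pearson r of log2(value + 1) between 0.99951 and 0.99974 among 10246 genes with a mean of at least 100. SQLE and EBP are enzymes of sterol synthesis. With 3 libraries in each of 2 separated groups such an r mostly reads the group difference and the small spread within groups, and 640 genes (6.25%) had an r of at least 0.99. PECR had an r of 0.997 with AMACR and ABCD3 one of 0.948.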

How the data were processed

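The deposited table holds a signal, each gene's reads scaled by 1 size factor per library. This was read from the values: 100% were whole multiples of what 1 read is worth, within 0.01 read, so reads could be recovered. Per the submitters' processing notes, the build named is GRCh38 and the tools named are DESeq2, STAR 2.5.2b, Trimmomatic 0.36, Subread 1.5.2 and featureCounts. Their roles, the annotation and the strand setting are not given in the sources used here.

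Genes with a mean of at least 10 were tested with limma 3.58.1 in R 4.3.3 (trend and robust moderation, two-sided) on log2(value + 1), 3 IPI-9119 against 3 DMSO libraries, with Benjamini-Hochberg adjustment over all 14437 genes and calls at an adjusted p under 0.05. That scale understates the fold change of low genes. Intervals of 95% use the moderated standard error. No replicate repeated another within sampling noise (2.29 to 9.56 chi-square units per degree of freedom). Levels per kilobase use the longest GENCODE 29 transcript with a consensus coding sequence, taken after the principal transcript gave an implausibly short AMACR.

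The 9 genes and the lists were chosen with earlier results of these data known. Named are the 9 genes, the measured genes of the list of other peroxisomal oxidation genes, the 2 called genes with the largest change in each direction of the further lists, FASN, and the 5 genes most like AMACR. Some genes this rule takes are not reported here. Others named (CAT, HADHA, HADHB, PPARA, PPARGC1B, marker genes and genes that share exons) were chosen after their values were seen.

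Alternatives were TMM and quantile scaling, pseudocounts of 0.5 and 8, a minimum mean of 50 or none, no trend and no robust moderation, edgeR 4.0.16 (4479 genes higher and 4602 lower, against 4522 and 4539 with limma) and DESeq2 1.42.0 on the recovered reads, a replicate block, the correction for exonic length and for the GC content of the longest transcript (splines of 4 degrees of freedom, GENCODE 29) and leaving out each library. The correction had values for 99.65% of genes. The fits were tested on simulated data. Promoters are from RefSeq.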

Additional observations from a re-analysis of the deposited data

How the results depend on the processing

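The rises of AMACR, PECR, ACOX3 and ABCD3 were past the threshold in all 18 alternative fits. The number of the 9 genes called lower was 1, and 2 with TMM scaling, with quantile scaling, with the replicate block, with the length and GC correction and with both of the last together. Leaving out 1 library gave 1 to 2, the 2 without IPI-9119 replicate 1. By log2 fold change AMACR was above PECR except with quantile scaling (1.15 against 1.21). EHHADH turned to 0.030 with quantile scaling. With the length and GC correction, with or without the block, FASN turned to 0.84, ACBD5 to -0.029, PEX26 to 0.23, MLYCD to 0.13 and RXRA to 0.39. ACOX2 turned to 0.052 with quantile scaling, and ran from -0.16 to 0.029 on leaving out 1 library, with 0.029 without IPI-9119 replicate 3. The causes were not tested. With the correction 3 of the other oxidation genes and 4 of the other peroxisomal proteins were higher, against 8 and 8. Of all genes 30.7% were higher with the correction and 31.3% without it. Whether the replicate numbers pair the libraries cannot be settled with 3 in each group. Deviations of same-numbered libraries correlated by 0.141, 0.063 and 0.004. As a block the replicate numbers moved the number of the 9 genes called higher from 5 to 6 and lower from 1 to 2. The genes added were ACOT8 (limma adjusted p 0.0348) and HSD17B4 (0.0227). FASN was called lower with the block (limma adjusted p 2.71e-05). Over all genes the block moved 4522 higher and 4539 lower to 4797 and 4799. ACOX3, with the fewest reads, is the least precise of the 9.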
